A study of Mus musculus with 8 samples.

Results

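A group of 9 interferon-inducible GTPase genes of the mouse was examined in stromal cells with and without knockdown of Irf7. They are the immunity-related GTPases Irgm1, Irgm2, Igtp, Iigp1, Tgtp1 and Tgtp2, the very large GTPase Gvin1, and the Mx proteins Mx1 and Mx2. The genes were chosen by symbol, with earlier results of these data known. Of the 9 genes 8 had a probe set, 1 each, among the 19505 genes tested, and the expression of Tgtp1 was not analysed here.

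The cells were mesenchymal stromal cells from the inguinal fat pad of male FVB mice aged 12 months, and total RNA was hybridised to Affymetrix mouse arrays. All groups carried the lentiviral backbone pLKO.1: 2 arrays with the empty vector, 2 with a scramble insert and 4 with shIRF7, a short hairpin RNA against Irf7. None of the 8 arrays is labelled as untransduced or as interferon-treated. Nothing in the labels ties a replicate to a culture, an animal or an infection of its own, or says whether the 4 shIRF7 arrays used the same hairpin. The p-values below therefore rest on variation among arrays that may be technical.

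Immunity-related GTPases (IRG proteins) are interferon-induced enzymes that load onto the membrane of vacuoles holding intracellular parasites and bacteria and help to break them open. The effector proteins Iigp1 (also called Irga6) and Tgtp (Irgb6) do the loading, while Irgm1, Irgm2 and Igtp (Irgm3) sit on the cell's own membranes and keep the effectors inactive there. Gvin1 belongs to a family of giant interferon-inducible GTPases whose function is little known. Mx proteins are dynamin-like GTPases that block viruses, Mx1 in the nucleus and Mx2 in the cytoplasm in rodents. IRF7 switches on type I interferon genes and binds the interferon-stimulated response element (ISRE), and the gamma-activated sequence (GAS) is bound by STAT dimers. In the C57BL/6J reference annotation of RefSeq both Mx1 and Mx2 are classed as transcribed pseudogenes, since that strain carries defective alleles. The alleles of the FVB cells were not examined here.

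Promoter sequences are shown first because 4 of the 5 genes with a promoter entry hold the same motif pair ahead of their start. RefSeq (GRCm38.p6) entries covering 250 bases before to 50 bases after the start were found for Irgm1, Irgm2, Igtp, Tgtp1 and Tgtp2. Iigp1, Gvin1, Mx1 and Mx2 had no entry in that table. Each line gives the 120 bases before the start, 5′ to 3′ on the gene's strand, with matches in capitals. The ISRE was searched as GAAA followed by 2 bases of any kind and GAAA again, and the GAS as TTCNNNGAA, where N is any base, on both strands.
Irgm1 (chr11:48871421-48871540, minus strand): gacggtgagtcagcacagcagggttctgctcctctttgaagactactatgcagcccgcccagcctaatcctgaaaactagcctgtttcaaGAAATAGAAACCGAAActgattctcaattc
Irgm2 (chr11:58214857-58214976, plus strand): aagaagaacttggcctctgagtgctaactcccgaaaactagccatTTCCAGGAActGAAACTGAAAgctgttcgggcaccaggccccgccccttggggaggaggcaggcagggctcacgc
Igtp (chr11:58199436-58199555, plus strand): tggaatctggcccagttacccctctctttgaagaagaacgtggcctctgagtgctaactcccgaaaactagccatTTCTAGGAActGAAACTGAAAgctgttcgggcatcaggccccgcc
Tgtp1 (chr11:48992247-48992366, minus strand): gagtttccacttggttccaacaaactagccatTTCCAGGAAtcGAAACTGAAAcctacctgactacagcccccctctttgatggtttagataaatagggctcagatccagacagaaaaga
Tgtp2 (chr11:49064213-49064332, minus strand): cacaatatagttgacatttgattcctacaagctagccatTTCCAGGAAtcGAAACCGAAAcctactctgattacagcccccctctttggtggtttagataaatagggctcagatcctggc

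In Irgm2, Igtp, Tgtp1 and Tgtp2 a GAS match came first and an ISRE match followed it, with 2 bases between them in all 4 genes. Counted from the start, the ISRE match ended at position -25 in Igtp, -55 in Irgm2, -61 in Tgtp2 and -68 in Tgtp1. Irgm1 differed: it held 2 overlapping ISRE matches, at positions -30 to -21 and -24 to -15, and no GAS match in the window. Of 32851 RefSeq promoters of the same length, 3.44% held the ISRE letters, 8.3% the GAS letters and 0.454% both. Between neighbouring genes the likeness went beyond the motifs: the longest run of identical bases in the printed windows was 38 for Irgm2 and Igtp and 27 for Tgtp1 and Tgtp2. A match describes letters only, and nothing in these data measured binding there.

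**Figure D1:**
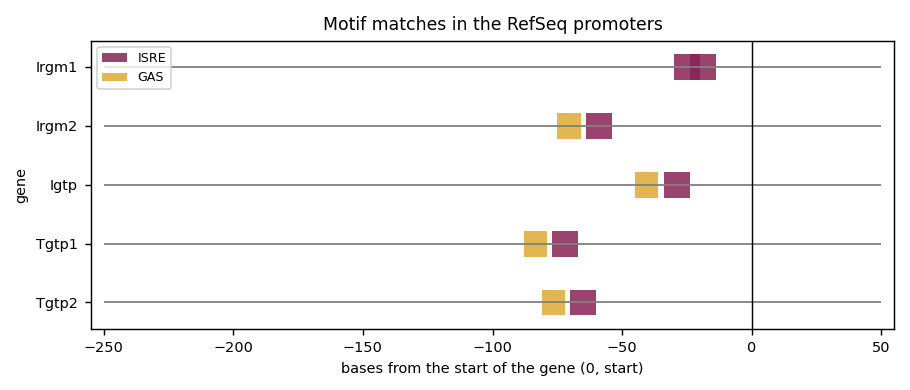
Positions of the ISRE and GAS matches in the RefSeq promoters of 5 genes, in bases from the start of the gene, over the 250 bases before and 50 bases after it. In Irgm2, Igtp, Tgtp1 and Tgtp2 a GAS match lies 2 bases ahead of an ISRE match, and Irgm1 has 2 overlapping ISRE matches.

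Values below are log2 expression values per probe set, made with RMA, which corrects for background, aligns the arrays and combines the probes of a set. Array medians ran from 5.35 to 5.45 over the named probe sets. The median of 5222 negative control probe sets averaged 4.40, and their 95th percentile averaged 8.39, so a share of negative controls lay well above most genes. Irf7 itself measured 9.55 and 9.61 with the empty vector, 9.56 and 9.76 with scramble, and 4.42, 5.66, 6.47 and 6.79 in shIRF7 replicates 1 to 4. All shIRF7 arrays lay below all controls, a log2 difference of -3.79 (limma adjusted p = 0.0692). Mesenchymal markers were present: 7 of 9 measured ones averaged above that 95th percentile. Nt5e (control mean 2.87) and Thy1 (control mean 8.43, shIRF7 mean 6.27) did not. Of 7 leukocyte markers 0 did, and Ptprc, which encodes CD45, lay between 3.36 and 4.15 in the controls and between 3.44 and 3.93 in shIRF7. On the log2 scale the summed leukocyte markers spanned 6.72 to 7.07 in the controls and 6.71 to 6.88 in shIRF7, endothelial markers 5.90 to 7.01 and 6.15 to 7.09, and adipocyte markers 8.36 to 9.07 and 7.48 to 9.16. Summed smooth muscle markers spanned 17.99 to 18.56 and 16.43 to 19.12, wider in shIRF7, and summed mesenchymal markers 19.23 to 19.45 and 18.97 to 19.13, lower in shIRF7. Vim, with a control mean of 18.35, was the brightest marker in that last sum. Values were summed before taking log2, so the brightest marker of a list weighs most. By control mean these were Fabp4 (8.58) for adipocyte, Tek (5.44) for endothelial, Cd14 (5.63) for leukocyte and Acta2 (17.98) for smooth muscle. Of 4 smooth muscle markers 3 averaged above the 95th percentile, as did 0 of 5 endothelial and 0 of 5 adipocyte ones. Of the 9 mesenchymal markers 0 passed limma's adjusted threshold, and 4 were lower at an unadjusted p under 0.05, against 4.1% of all genes: Thy1 by a log2 difference of -2.15, Cd44 by -1.34, Col1a1 by -0.88 and Col1a2 by -0.70. All 4 shIRF7 arrays lay below all controls for Col1a1 and Col1a2, and the groups overlapped for Thy1 and Cd44. The part of the smooth muscle and mesenchymal markers in the results below was not tested.

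shIRF7 was first compared with both controls, which asks whether knockdown of Irf7 lowered these GTPase transcripts. All 8 measured genes had a lower mean in shIRF7, with a median log2 difference of -1.46 and a range from -4.50 for Gvin1 to -0.56 for Mx1. Over all genes the median difference was 0.0017, and 9694 of 19505 were lower. In 6 of the 8 genes (Irgm1, Irgm2, Igtp, Iigp1, Gvin1 and Mx2) every shIRF7 array lay below every control array, as did 2.8% of all genes. None of the 8 passed limma's threshold of an adjusted p under 0.05 over all genes (0 of 8, against 0.0308% of all genes called lower). At an unadjusted limma p under 0.05, 7 of the 8 were lower, against 4.1% of all genes, with Irgm2 the exception. The genes and the lists below were chosen with earlier results of these data known. Counts set beside the shares of all genes are therefore a description and no test of enrichment. In bulk cultures fewer expressing cells and less RNA per cell cannot be told apart.

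**Figure D2:**
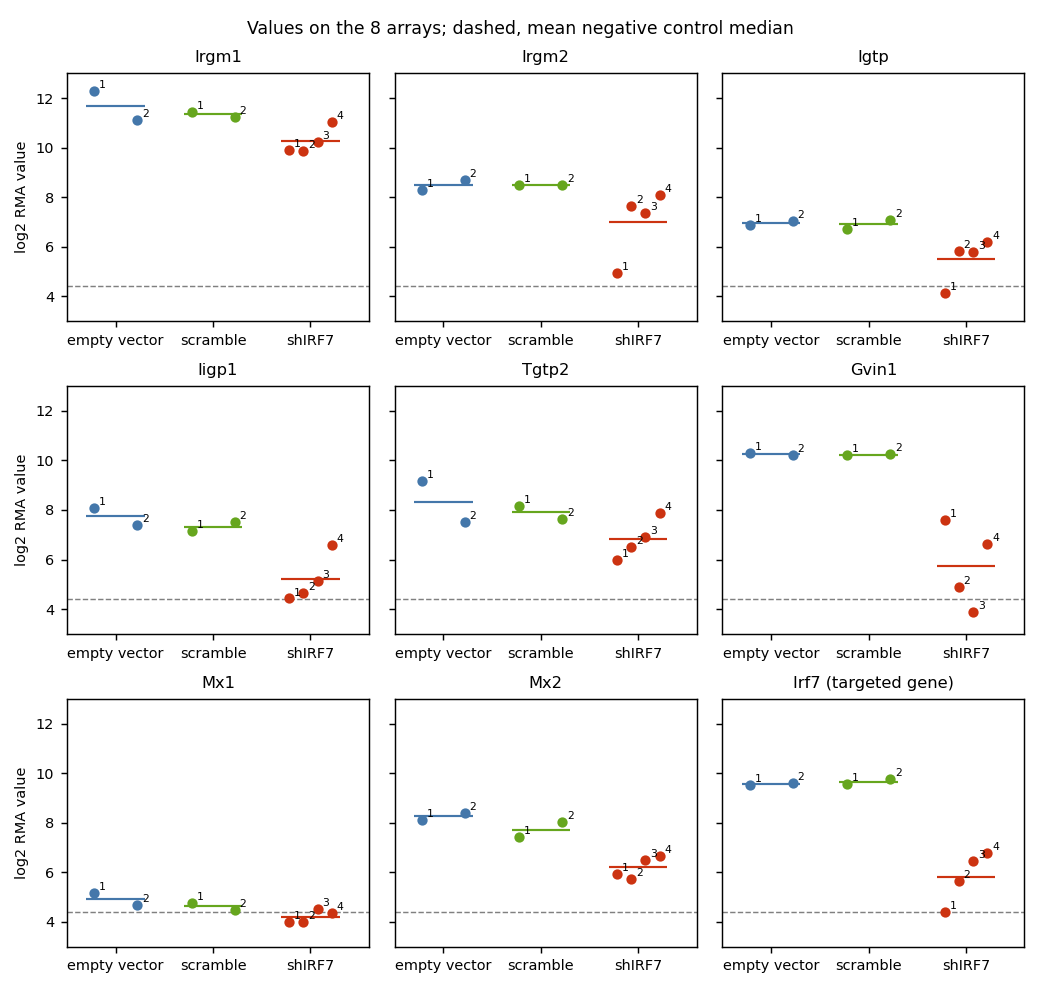
The log2 RMA value of each of the 8 genes and of Irf7 on each array, by group, with replicate numbers beside the points, a bar at each group mean and a dashed line at the mean negative control median of 4.40. In 6 genes and in Irf7 all shIRF7 points lie below all control points, and Mx1 lies close to the dashed line in every group.

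All 3 regulators of the family had lower means in shIRF7, and 0 of them passed limma's adjusted threshold. Irgm1, which also takes part in autophagy and mitochondrial turnover, measured 12.27 and 11.09 with the empty vector, 11.44 and 11.25 with scramble, and 9.90, 9.85, 10.23 and 11.02 in shIRF7. The groups did not overlap, but shIRF7 replicate 4 lay only 0.073 below empty vector replicate 2. Control and shIRF7 arrays averaged 11.51 ± 0.53 and 10.25 ± 0.54 (SD, n = 4 each), a log2 difference of -1.26 or 2.40-fold (SE 0.34, limma adjusted p = 0.363).

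Irgm2, the regulator associated with the Golgi, measured 8.29 and 8.71 with the empty vector, 8.48 and 8.47 with scramble, and 4.94, 7.63, 7.36 and 8.11 in shIRF7. shIRF7 replicate 1 deviated by -3.55 from the control mean, and the other three by -0.86, -1.13 and -0.38. The difference was -1.48 (SE 0.64, 95% interval -2.96 to 0.0038, limma adjusted p = 0.618), and -0.79 without shIRF7 replicate 1. Igtp, the regulator on the endoplasmic reticulum and lipid droplets, measured 6.87 and 7.02 with the empty vector, 6.73 and 7.08 with scramble, and 4.14, 5.82, 5.81 and 6.18 in shIRF7. Here too shIRF7 replicate 1 was lowest, below the mean negative control median, and all 4 lay below all controls. On the control arrays 86.4% to 90.0% of negative control probe sets lay below Igtp. Its difference was -1.44 or 2.71-fold (SE 0.43, limma adjusted p = 0.43), a fold that may be understated since replicate 1 reached background.

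Among the effectors Iigp1 differed most. It measured 8.09 and 7.41 with the empty vector, 7.15 and 7.52 with scramble, and 4.43, 4.66, 5.14 and 6.59 in shIRF7. The groups were separated by 0.56, and shIRF7 replicates 1 and 2 came down to the level of the negative controls, where 55.9% and 52.2% of negative control probe sets were lower. On the control arrays 89.4% to 95.1% of them were lower. Means were 7.54 ± 0.40 and 5.20 ± 0.97 (SD, n = 4 each), a difference of -2.34 or 5.06-fold (SE 0.46, limma adjusted p = 0.197), which may understate the change where values reach background.

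Tgtp2 measured 9.15 and 7.51 with the empty vector, 8.17 and 7.64 with scramble, and 5.97, 6.49, 6.92 and 7.88 in shIRF7. The groups overlapped: shIRF7 replicate 4 exceeded both replicates 2 of the controls, and the empty vector arrays differed by 1.65 from each other. The difference was -1.30 or 2.47-fold (SE 0.49, limma adjusted p = 0.559). Tgtp1 and Tgtp2 are near-identical neighbouring copies, so the probe set named Tgtp2 may also detect Tgtp1 transcripts, and its value is uncertain as a measure of either.

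Gvin1 had the largest difference of the 8 genes and the tightest controls. It measured 10.29 and 10.22 with the empty vector, 10.21 and 10.25 with scramble, and 7.59, 4.88, 3.90 and 6.61 in shIRF7. The control arrays spanned 0.079 and the shIRF7 arrays 3.70, and 2.62 separated the groups. Means were 10.25 ± 0.036 and 5.74 ± 1.67 (SD, n = 4 each), a difference of -4.50 or 22.7-fold (SE 0.75, 95% interval -6.23 to -2.77, limma adjusted p = 0.148). In shIRF7 replicates 2 and 3, 56.7% and 33.9% of negative controls were lower, so the fold may be understated. Without shIRF7 replicate 1 the difference was -5.12 and Gvin1 passed the threshold (limma adjusted p = 0.0494). Without shIRF7 replicate 3 it was -3.88 (limma adjusted p = 0.251), and without shIRF7 replicate 2 it was -4.21 (limma adjusted p = 0.524). In the alternative fits listed in the closing section no other of the 8 genes passed. Gvin1 lies in a cluster of related sequences, and cross-detection of those by its probes was not tested.

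The Mx pair differed in how far they could be read. Mx2 measured 8.13 and 8.40 with the empty vector, 7.42 and 8.03 with scramble, and 5.94, 5.75, 6.49 and 6.68 in shIRF7, with 0.74 between the groups. Between 92.3% and 95.2% of negative controls lay below Mx2 on the control arrays, and between 72.6% and 87.0% on the shIRF7 arrays. SDs were 0.41 in the controls and 0.44 in shIRF7 (n = 4 each), and the difference was -1.78 or 3.44-fold (SE 0.26, 95% interval -2.38 to -1.19). It had the lowest adjusted p of the 8 genes (limma adjusted p = 0.1). Mx1 measured 5.16 and 4.70 with the empty vector, 4.78 and 4.48 with scramble, and 4.01, 4.00, 4.51 and 4.35 in shIRF7. Between 48.4% and 70.3% of negative controls lay below Mx1 on the control arrays, and between 36.2% and 50.5% on the shIRF7 arrays. Mx1 thus lay within the bulk of the negative controls in both groups, its difference of -0.56 (SE 0.19, limma adjusted p = 0.505) is given without a fold, and the groups overlapped by 0.033.

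A two-sided exact permutation test of each gene alone, 4 shIRF7 against 4 control arrays, gave p = 0.0286 for the 6 genes without overlap and for Irf7. With 70 assignments that is the smallest p it can give. For Mx1 the exact p was 0.0571 and for Tgtp2 0.0857. These values are not adjusted for the 8 genes, which were chosen with earlier results of these data known. The test treats the 4 control arrays as exchangeable, though these share a difference by replicate number given in the closing section.

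**Figure D3:**
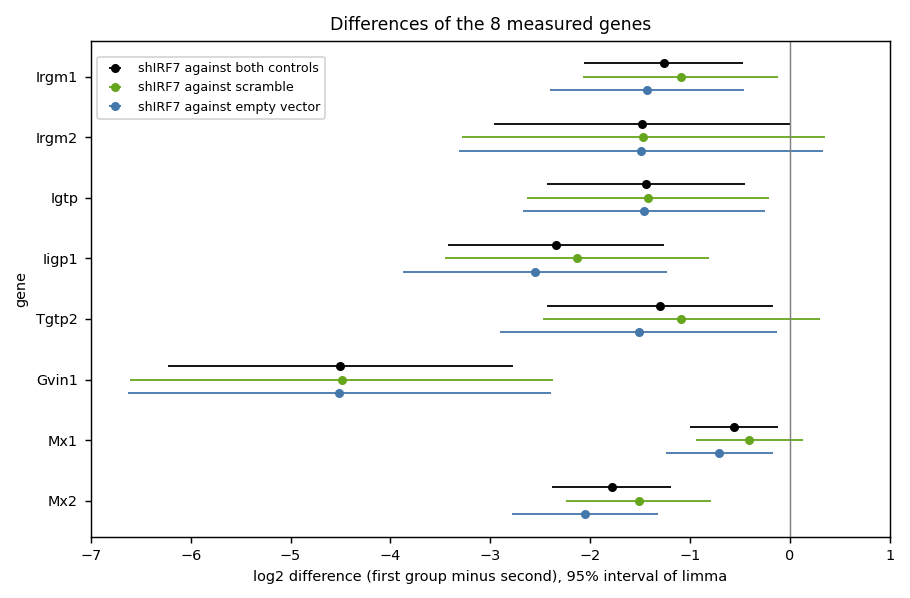
Log2 differences of the 8 genes with limma's 95% intervals, for shIRF7 against both controls (black), scramble (green) and empty vector (blue). All points lie below 0, and the intervals of Irgm2 cross 0 in each comparison, as do those of Tgtp2 and Mx1 against scramble.

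The 4 shIRF7 arrays were not alike. The median deviation of the 8 genes from their control means was -2.40 in replicate 1, -1.64 in replicate 2, -1.24 in replicate 3 and -0.62 in replicate 4. Irf7 ranked the arrays in the same order, from 4.42 in replicate 1 to 6.79 in replicate 4, as did Iigp1 and Tgtp2. Replicate 4 had the highest value of the 4 for 6 of the 8 genes. Gvin1 went otherwise. It deviated by -2.65 in replicate 1, where Irf7 was lowest, and by -5.37, -6.35 and -3.64 in replicates 2 to 4. With 4 arrays these orders are a description and were not tested.

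**Figure D4:**
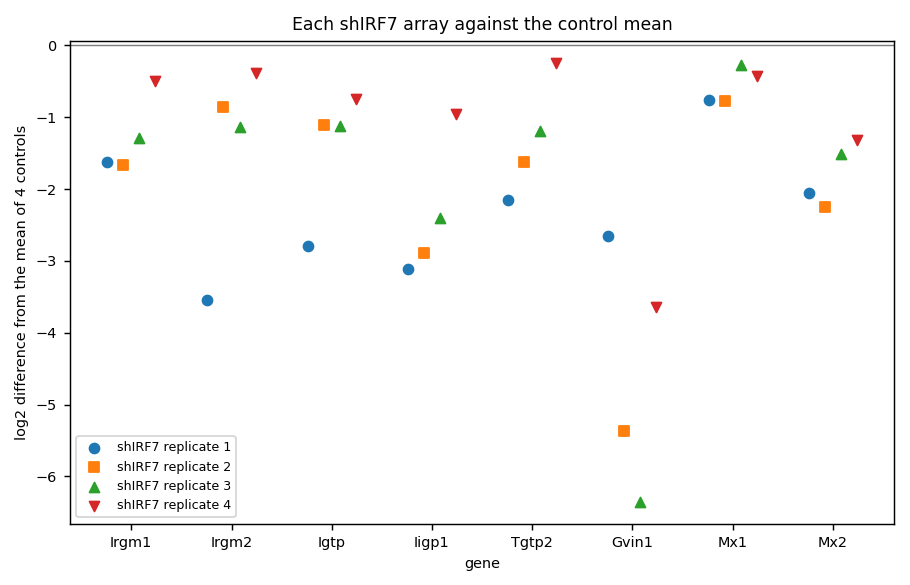
Log2 difference of each shIRF7 array from the mean of the 4 control arrays, for each of the 8 genes; colours and symbols mark the replicates. Replicate 1 is the lowest for Irgm2, Igtp, Iigp1 and Tgtp2 but the highest for Gvin1.

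Each control was then taken alone; both comparisons use the same 4 shIRF7 arrays. Against scramble, which controls for a hairpin of another sequence, the 8 genes differed by a median of -1.44, from -4.49 for Gvin1 and -2.13 for Iigp1 to -0.41 for Mx1. Every shIRF7 array lay below both scramble arrays in 6 genes, against 7.61% of all genes. In limma 0 of 8 passed the adjusted threshold (0.00513% of all genes called lower), and 5 were lower at an unadjusted p under 0.05, against 3.27% of all genes. Against the empty vector the median was -1.50, with -4.51 for Gvin1, -2.55 for Iigp1 and -2.05 for Mx2. Without empty vector replicate 1 the difference of Irgm1 went from -1.43 to -0.85 and that of Tgtp2 from -1.52 to -0.69. With all arrays 7 genes did not overlap, all but Tgtp2, against 6.96% of all genes. In limma 0 of 8 passed (0% of all genes called lower), and 7 were lower at an unadjusted p under 0.05, against 3.3% of all genes.

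The controls were then set against each other. Scramble minus empty vector ranged from -0.53 for Mx2 to -0.02 for Irgm2 and Gvin1, with 0 of 8 passing limma's adjusted threshold (0% of all genes called lower) and 0 at an unadjusted p under 0.05 (1.15%). Only for Mx2 did both scramble arrays lie below both empty vector arrays, against 12.3% of all genes.

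Negative control medians differed by replicate number, at 4.18 to 4.26 on the replicate 1 arrays and 4.55 to 4.56 on the replicate 2 arrays of the 3 groups. Within number 1 the median difference of the 8 genes, shIRF7 minus the mean of both controls, was -2.66, and within number 2 it was -1.28. All 8 were lower in both. Irgm2 differed by -3.45 and -0.96, Igtp by -2.66 and -1.23, Iigp1 by -3.19 and -2.81, Irgm1 by -1.96 and -1.32, and Tgtp2 by -2.69 and -1.08. Gvin1 differed by -2.66 and -5.36, Mx2 by -1.84 and -2.47, and Mx1 by -0.95 and -0.58. So 6 of the 8 genes had the larger difference within number 1, and Gvin1 and Mx2 within number 2.

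The list of IRG relatives held 9 measured genes, of which 8 had a lower mean and Irgc1 a higher one (0.20). Their median log2 difference was -0.87 in shIRF7 against both controls. In limma 0 of 9 passed. At an unadjusted p under 0.05, 6 were lower, against 4.1% of all genes, and 3 did not overlap between groups, against 2.8%. Gm5431 differed by -0.05 (limma adjusted p = 0.981). Largest was Gm4951, an IRG gene of the Iigp1 locus, which measured 6.93 and 8.49 with the empty vector, 6.39 and 6.76 with scramble, and 4.03, 4.37, 4.10 and 4.51 in shIRF7. Its 4 shIRF7 arrays lay at the level of the negative controls and well below all controls, a difference of -2.89 (SE 0.33, limma adjusted p = 0.0692). Its 7.41-fold may be understated, since the shIRF7 values reach background. Gm4841 differed by -1.69 (limma adjusted p = 0.338) with overlapping groups and F830016B08Rik by -1.48 (limma adjusted p = 0.188) without overlap, both from the same locus. Against scramble alone their median was -0.26, with 2 of the 9 relatives lower at an unadjusted limma p under 0.05 (3.27% of all genes). Against the empty vector alone it was -1.49, with 6 lower (3.3%). The controls differed too: scramble minus empty vector had a median of -1.14, with 5 lower at that p, against 1.15% of all genes. Of the 9 relatives 6 had both scramble arrays below both empty vector arrays, against 12.3% of all genes. Gm4951 differed by -1.14 there and F830016B08Rik by -1.37, neither passing limma's adjusted threshold. The only measured gene on the list of Gvin relatives, Gm1966, differed by -0.29 (limma adjusted p = 0.809). All 8 arrays of Gm1966 lay below the mean negative control median.

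Neighbouring genes were read next. Up to 3 measured genes on each side of each of the 8 loci were taken by RefSeq order. They gave 27 neighbours outside the 9 genes and the lists of IRG and Gvin relatives. Their median difference was -0.018, with a range from -1.05 for Bace2 to 0.89 for Tpp1. In 0 of the 27 did all shIRF7 arrays lie below all controls, against 2.8% of all genes. In 1 of the 27 all lay above all controls, as in 503 of 19505 genes. Fam3b, which lies between Mx1 and Mx2, differed by 0.11. Psme2b, between Irgm1 and Tgtp2, differed by -0.47. Gm4759, between Gvin1 and Gm1966, differed by -0.018, and whether it is a Gvin relative was not examined.

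Guanylate-binding proteins, the other large family of interferon-inducible GTPases, had a median of -0.74 over 6 measured genes, with 0 passing limma, 4 lower at an unadjusted p under 0.05 (4.1% of all genes) and 3 without overlap (2.8% of all genes). Gbp3 differed by -2.90 (limma adjusted p = 0.174), Gbp7 by -2.34 (limma adjusted p = 0.342) and Gbp2 by -1.02 (limma adjusted p = 0.636). GTPases of the dynamin superfamily that act in membrane fission and fusion outside the interferon response had a median of -0.12 over 12 genes, with 0 passing, 2 lower at an unadjusted p under 0.05 and 3 without overlap, both counts to be read against the same shares of all genes. Dnm1l, which divides mitochondria and peroxisomes, differed by -1.56 (limma adjusted p = 0.174), Atl3 by -0.47 (limma adjusted p = 0.575) and Ehd4 by -0.44 (limma adjusted p = 0.803).

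The machinery that guides IRG proteins to vacuoles, ATG8 conjugation and ubiquitin tagging, had a median of 0.17 over 14 genes, with 0 passing limma. Of the 14 genes 0 differed at an unadjusted p under 0.05 (4.1% of all genes were lower) and 0 lay without overlap (2.8% of all genes lay below). Map1lc3b, an ATG8 protein, differed by 1.04, Trim21, a ubiquitin ligase, by -0.71 and Atg16l1, of the conjugation complex, by -0.66 (limma adjusted p = 0.756, 0.627 and 0.716). Genes of interferon receptors and signalling had a median of -0.32 over 10 genes, with 0 passing. At an unadjusted p under 0.05, 3 were lower without overlap (of all genes 4.1% were lower at that p and 2.8% lay below without overlap). These were Irf9, the DNA-binding part of the ISGF3 complex (-1.40, limma adjusted p = 0.319), and the receptor kinases Jak1 (-1.35, limma adjusted p = 0.0692) and Jak2 (-1.04, limma adjusted p = 0.111). The interferon gamma receptor subunits differed by -0.42 for Ifngr1 and 0.29 for Ifngr2, with overlapping groups.

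**Figure D5:**
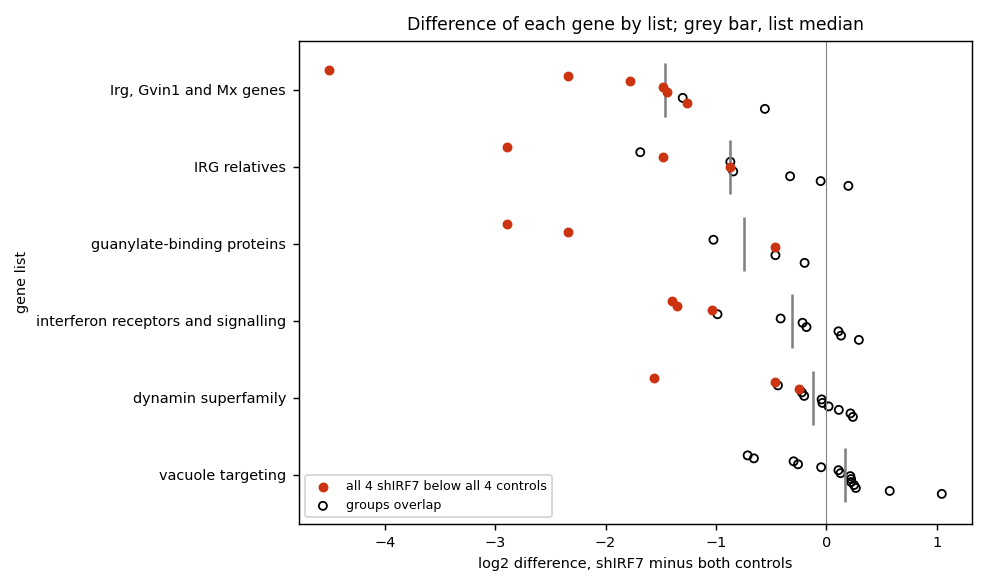
Log2 difference of each measured gene in shIRF7 against both controls, by gene list; filled points are genes whose 4 shIRF7 arrays all lie below all 4 controls, and grey bars are list medians. The medians run from -1.46 for the Irg, Gvin1 and Mx genes to 0.17 for vacuole targeting.

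The motif letters were then counted in the promoters of these lists. All 5 guanylate-binding protein genes with a RefSeq promoter held the ISRE letters and 2 also the GAS letters, as did 3 and 2 of 6 IRG relatives. The promoter of 1 Gvin relative held the ISRE letters and no GAS letters. Of 10 genes of interferon receptors and signalling 1 held the ISRE and 3 the GAS letters, and of 11 vacuole targeting genes 1 and 2. Of 13 dynamin superfamily genes 0 held either motif. Of all 27025 genes with a RefSeq promoter, 1079 held the ISRE letters, 2582 the GAS letters and 146 both.

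Genes most alike in pattern were ranked by Pearson r over the 8 arrays, among 3822 genes with a mean above the negative control 95th percentile and a range of at least 1. For the mean profile of the 8 genes they were Oasl2, an oligoadenylate synthetase-like protein (r = 0.977), Bst2, which encodes tetherin (r = 0.973), Pla1a, a phospholipase (r = 0.965), Herc6, an ISG15 ligase (r = 0.962), and Adar, an RNA-editing enzyme (r = 0.961). For Gvin1 alone they were Ube2d3, Tnrc6a, Rnpep, Apbb1ip and Ier5, with r from 0.949 to 0.966. The 2 lists share 0 genes. Arrays of a group share their label, so the difference between groups enters every r. Of the 8 genes the mean profile itself correlated most with Iigp1 (r = 0.991) and least with Irgm2 (r = 0.785). Each of the 8 is part of that mean, which raises its r. Irf7, which is not part of it, had r = 0.967.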

How the data were processed

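The deposited table holds log2 values for 28846 probe sets on 8 arrays, which the authors made with RMA. The submitters' processing notes name Expression Console (Affymetrix), version 1.4.1.46. That values are log2 was judged from their range (1.66 to 18.9). No build for the probe design is stated in the sources used here. No array column was left unused (0). Of the probe sets 19572 had 1 gene symbol, 0 several and 9274 none, and all 19572 gene identifiers matched RefSeq. For 55 genes with several probe sets the brightest was kept. The 9 genes and all lists were chosen with earlier results of these data known. Named by rule were the 9 genes, Irf7, up to 3 of each related list by size of difference and the 5 most alike in pattern. Single markers, neighbours, Gm5431, Irgc1 and the Ifngr subunits were named outside that rule, after their values were seen.

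Group means over the 8 arrays were estimated by lmFit and eBayes (limma 3.58.1, R 4.3.3; 5 residual and 2.68 prior degrees of freedom), with p-values adjusted by Benjamini-Hochberg over 19505 genes. An SE is limma's moderated standard error. The fit was tested on simulated data. The number of arrays limits the precision. Alternatives were 2 filters on dim genes, trend and robust eBayes, cyclic loess, median centring, other handling of probe sets, merged controls, averaged shIRF7 replicates 2 and 3, the replicate number as a block, and leaving out each array. The block fit in effect leaves out shIRF7 replicates 3 and 4, whose numbers no control array has.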

Additional observations from a re-analysis of the deposited data

How the results depend on the processing

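For shIRF7 against both controls the count of the 8 genes past limma's threshold was 0 in 17 of 18 alternatives. In the main fit it was also 0, with 7 of the 8 genes at an unadjusted p under 0.05. The fits that each left out 1 array gave 0 to 1 genes, the 1 being Gvin1 without shIRF7 replicate 1. Against scramble, against the empty vector and between the controls the count was 0 in all alternatives run. All 8 differences of shIRF7 from each control kept their sign in each alternative that tested them. The median difference stayed between -1.76 and -1.08. The background moved more: of all genes 6 passed in shIRF7 against both controls, but 28 without shIRF7 replicate 1 or with both controls as 1 group, 2 without empty vector replicate 2, 3 without shIRF7 replicate 4, 3 without dim genes or with trend and robust eBayes, and 0 under the block, with shIRF7 replicates 2 and 3 averaged, or without either scramble array, shIRF7 replicate 2 or replicate 3. The planned filter on dim genes kept 1 of the 8 genes (Irgm1), so a milder filter at the negative control median, chosen after seeing the data, was added. It kept all 8. Against scramble 1 of all genes passed, with 0 to 8 over the alternatives, and against the empty vector 0, with 0 to 3.

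With the replicate number as a block 0 of the 8 genes passed (Gvin1 -4.01, limma adjusted p = 0.748, and Mx2 -2.16, limma adjusted p = 0.388). Numbers 3 and 4 occur only in shIRF7, so their block terms absorb those arrays. The comparison in that fit thus rests on shIRF7 replicates 1 and 2 and the control arrays. Replicate 1 minus replicate 2 correlated over genes between empty vector and scramble (r = 0.757) and weakly, in the opposite direction, with shIRF7 (-0.29 and -0.215). The control arrays thus share a difference by number that shIRF7 did not follow over genes. The numbers were not used to pair arrays in the main fit. The SDs of the controls and the exact permutation test treat the control arrays as exchangeable, which that shared difference may breach. In the exact permutation test, leaving out a control array moved p from 0.0286 to between 0.0571 and 0.0857 for Irgm1, Irgm2, Igtp and Iigp1. All shIRF7 arrays of these genes still lay below all remaining controls, and fewer than 70 assignments were left. Part of the change in p thus comes from the smaller and unequal groups. Without shIRF7 replicate 4 the exact p of Tgtp2 was 0.0286. Scramble minus empty vector, which passed for none of the 8 genes, changed sign in some fits for Irgm1, Irgm2, Igtp, Tgtp2 and Gvin1.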
